A study of Saccharomyces cerevisiae with 50 samples.

Results

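The genes described here are the 40 nuclear genes of the tricarboxylic acid (TCA) cycle, respiratory complexes II, III and IV, cytochrome c and ATP synthase, out of 6205 open reading frames on the arrays. They were taken by systematic name from a fixed list of pathway members. By role there are 14 genes of the TCA cycle and complex II, 9 of complex III and cytochrome c, 8 of complex IV and 9 of ATP synthase. All but QCR7 (YDR529C), a subunit of complex III, had enough time points to be tested, which left 39.

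The TCA cycle oxidises acetyl units in the mitochondrial matrix and passes the electrons to the respiratory chain. Complex II, succinate dehydrogenase, belongs to both pathways, complex III and complex IV carry electrons onward through cytochrome c to oxygen, and ATP synthase uses the proton gradient they build. In budding yeast growing on glucose most ATP comes from fermentation, and many of these genes are repressed by glucose and activated by the Hap1 factor and the Hap2/3/4/5 complex.

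The study followed a Saccharomyces cerevisiae strain that lacks YOX1, which encodes a homeodomain repressor of genes expressed around the M/G1 transition. Alpha factor, a mating pheromone, held the cells in G1; they were then released into the rich glucose medium YEPD and sampled at 25 times from 0 to 120 min, 5 min apart. RNA of each time was labelled with Cy5 and hybridised on 2 arrays, 1 in each of 2 array sets, against Cy3-labelled RNA of asynchronous wild-type cells grown in YEPD. Every time point therefore carries the deletion, the reference carries none, and no synchronised wild-type course was analysed here, so strain and synchrony cannot be told apart in the level of a gene. The design text calls the repeats technical, so the p-values measure scatter around a course and not the spread between cultures. In a bulk culture, fewer cells with an RNA and less of it per cell cannot be told apart.

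Values are log2 ratios of the mutant time point over the reference, on the inferred assumption that the deposited numbers are log10 ratios. The 50 arrays held 5528 to 6110 values each. For YOX1 itself 49 of 49 measured ratios were below 0, with a mean of -1.10 ± 0.07 (SE, 25 time points). Marker genes of the cell cycle fitted a period of 71 min: the M/G1 gene EGT2 had its fitted peak at 5.74 min and the S-phase histone gene HTA2 at 34.8 min. In both sets the arrays of 25, 40 and 55 min, 6 in all, differed from the rest, with an SD over genes of 0.74 to 1.23 against 0.33 to 0.83 on the other 44 arrays. Each result on the course is therefore given with these 3 times (25 time points) and without them (22 time points). A gene is called where the limma test, adjusted by Benjamini-Hochberg over all genes, gave p under 0.01.

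Outside the 3 times, many of the respiratory genes fitted a wave of the cell-cycle period, with small swings. Without 25, 40 and 55 min, 24 of 39 members were called periodic, against 25.1% of all 6087 genes tested. With all 25 time points 5 were called, against 13.3% of 6063 genes. Those 5 were CIT1, IDH1, SDH1, SDH2 and SDH4, all in the TCA cycle or complex II, and each was also called without the 3 times. The median peak-to-trough size, the full height of the fitted wave, was 0.48 over the 24 called members, below the 0.53 of all called genes. The largest, that of SDH2, was 1.00, a 2.00-fold swing. By role, 9 of 14 genes of the TCA cycle and complex II, 3 of 8 of complex III and cytochrome c, 5 of 8 of complex IV and 7 of 9 of ATP synthase were called. Periods of 65 and 77 min gave 25 and 23 calls in place of the 24, so the count does not single out the cell-cycle period. Whether the waves follow the cell cycle or the release itself was not tested.

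Except for that of IDH1, the fitted peaks of the called members lay early in the cycle, between the M/G1 marker and the histone gene. Of the 24 called members, 21 peaked between 5 and 22 min after release, a window set after the peaks were seen, which held 24.4% of all called genes. The other 3 were ACO1, LSC2 and IDH1, with peaks at 28.9, 29.1 and 38.6 min. At 10 min 35 of 39 members lay above their own mean over the 22 times, at 50 min 3 did, at 90 min 34 and at 120 min 9. In the 23 called members with a fit in each array set, the peaks in the sets differed by 10 min or less. Set 1 alone gave 18 and set 2 alone 20 of these 24 calls, and 16 were made in both.

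**Figure D1:**
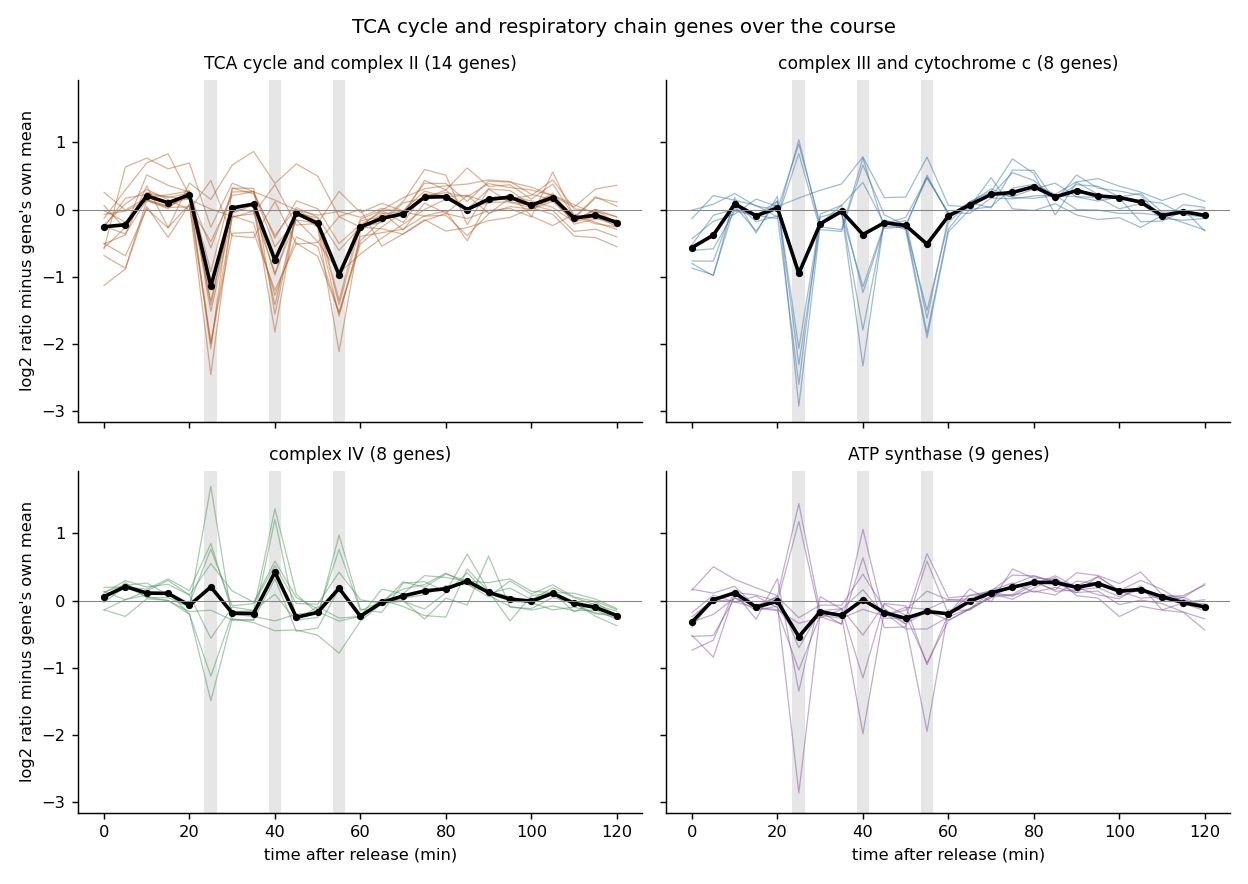
Log2 ratio of each gene minus its own mean over the 22 other time points (coloured lines) and the median over the genes of a role (black) against time after release in min, 2 arrays averaged per time. Grey bands mark 25, 40 and 55 min, where the genes of each role split upward and downward. Outside the bands 35 of 39 genes lie above their mean at 10 min, 3 at 50 min and 34 at 90 min.

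The calls depended on the form of the fit. Without the linear time term, the 22 time points gave 14 calls in place of 24. The titles place the arrays under 5 dates, coded A to E here, and each date covers part of the course: within A, B and D, the 3 dates with at least 12 arrays, the same fit gave 1, 3 and 12 calls. With 25 time points the counts within A, B and D were 0, 3 and 12. Leaving out 25 min raised the 25-point count from 5 to 12, and leaving out any one of 10, 15, 20, 55, 60, 75, 80, 90 or 95 min lowered it to 3.

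Among the TCA cycle genes, citrate synthase and succinate dehydrogenase swung widest. CIT1 (YNR001C), the mitochondrial citrate synthase that opens the cycle, ranged from 0.62 at 60 min to 2.64 at 10 min on the arrays outside the 3 times, with a median of 1.53. Outside the 3 times its time-point mean went from 0.99 at 0 min to 2.34 at 10 min, 0.91 at 60 min and 1.88 at 90 min. Every one of its 49 arrays lay above the reference. The fitted swing of CIT1 was 1.00 ± 0.14 (SE, 22 time points), with a peak at 21.1 min and an adjusted p of 7.15e-05.

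All 4 genes of complex II were called without the 3 times. SDH2 (YLL041C), the iron-sulfur subunit, ran from 0.27 at 50 min to 2.23 at 10 min, with a median of 1.12, and its time-point means peaked at 1.99 (15 min) and 1.76 (75 min). SDH1 (YKL148C), the flavoprotein subunit, ran from -0.31 at 0 min to 1.195 at 10 min, with a median of 0.52. SDH4 (YDR178W), a membrane anchor subunit, ran from -0.07 at 50 min to 1.16 at 85 min, with a median of 0.53. The 3 genes were high soon after release, low between 45 and 50 min and high again between 75 and 90 min. Their fitted swings were 1.00 ± 0.15 for SDH2 (adjusted p = 0.000164), 0.91 ± 0.11 for SDH1 (adjusted p = 2.41e-05) and 0.83 ± 0.09 for SDH4 (adjusted p = 4.19e-06). The other membrane anchor, SDH3 (YKL141W), had a swing of 0.44 ± 0.08 (adjusted p = 0.000535). The 4 peaks lay between 11.8 and 17.2 min. With 25 time points SDH1 (adjusted p = 0.00659) and SDH2 (adjusted p = 0.00898) passed narrowly. In the 25-point fit of set 2 alone SDH1 (adjusted p = 0.0436) and SDH2 (adjusted p = 0.0211) were lost, and in that of set 1 alone SDH2 (adjusted p = 0.0126) and SDH4 (adjusted p = 0.0185).

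The subunits of isocitrate dehydrogenase, which form 1 enzyme, had unlike courses. IDH1 (YNL037C), the regulatory subunit, had its lowest time-point mean of 0.06 at 5 min, its highest of 1.62 at 35 min and a lower second maximum of 0.94 at 115 min. Its arrays outside the 3 times ran from -0.48 to 2.19, with a median of 0.75. The fitted swing was 1.00 ± 0.15, with a peak at 38.6 min and an adjusted p of 0.000144. IDH2 (YOR136W), the catalytic subunit, lay between 1.02 and 1.67 in its time-point means outside the 3 times, with a median of 1.39, and its swing of 0.27 ± 0.08 was not called (adjusted p = 0.0324). The difference between the 2 swings was not tested. Of all members IDH1 was least like the rest: its median correlation with the others over 22 time points was -0.14, and its r with QCR9 of -0.76 was the lowest of 741 pairs.

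The remaining genes of the cycle were smaller or later. ACO1 (YLR304C), aconitase, had a swing of 0.60 ± 0.11 (adjusted p = 0.000818), with time-point means of 1.24 at 30 min and 1.37 at 105 min, and LSC2 (YGR244C), the beta subunit of succinyl-CoA ligase, one of 0.47 ± 0.10 (adjusted p = 0.00308). KGD2 (YDR148C), a subunit of 2-oxoglutarate dehydrogenase, was called with 0.34 ± 0.07 (adjusted p = 0.00413), although its profiles in the 2 sets had an r of -0.09. Of those not called, MDH1 (YKL085W), mitochondrial malate dehydrogenase, had a swing of 0.66 (adjusted p = 0.0228) and LSC1 (YOR142W), the alpha subunit of succinyl-CoA ligase, one of 0.37 (adjusted p = 0.0662). FUM1 (YPL262W), fumarase, had 0.35 (adjusted p = 0.0187) and KGD1 (YIL125W) 0.23 (adjusted p = 0.316).

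**Figure D2:**
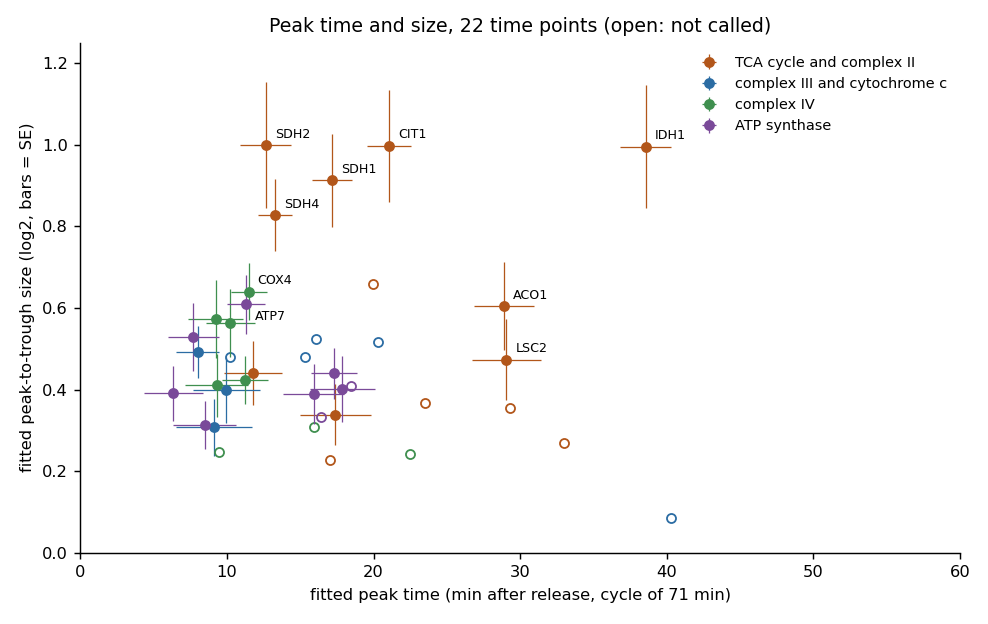
Fitted peak-to-trough size (log2) against fitted peak time in min in the fit of 22 time points, coloured by role, with filled points and SE bars for the 24 called genes and open points without bars for the 15 others. Most called genes lie at 6 to 21 min with sizes of 0.31 to 1.00, and ACO1, LSC2 and IDH1 lie later.

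In complex III, without a correction for gene length, the 3 small subunits tested were called and the core subunits were not. QCR9 (YGR183C), a small subunit, ran from 0.60 at 45 min to 1.47 at 70 min outside the 3 times, with a median of 1.02, and its time-point means were 1.198 at 5 min, 0.69 at 35 min and 1.30 at 70 min. Its swing was 0.49 ± 0.06 with a peak at 8.00 min (adjusted p = 2.63e-05). QCR6 (YFR033C), the hinge subunit, had 0.40 ± 0.08 (adjusted p = 0.0018), and QCR8 (YJL166W) 0.31 ± 0.07 (adjusted p = 0.00482), with an r between sets of -0.18 for QCR8. The core proteins QCR2 (YPR191W) and COR1 (YBL045C) had the largest fitted sizes of the complex, 0.52 ± 0.18 and 0.52 ± 0.13, with adjusted p of 0.0587 and 0.0139. QCR2 ran from -0.91 at 5 min to 1.34 at 75 min, with a median of 0.61, and its time-point means went from -0.46 at 5 min to 0.71 at 10 min and 0.18 at 15 min. COR1 ran from -0.66 at 5 min to 1.14 at 95 min, with a median of 0.70. Both were low at 0 and 5 min.

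The electron carriers of this stretch were not called either. RIP1 (YEL024W), the Rieske iron-sulfur protein, had a swing of 0.48 (adjusted p = 0.0446), and CYT1 (YOR065W), cytochrome c1, one of 0.48 (adjusted p = 0.0317). CYC1 (YJR048W), the main isoform of cytochrome c, had the smallest swing of all members, 0.08 ± 0.14 (adjusted p = 0.865): its time-point means went from 0.48 at 0 min to 1.29 at 35 min and 1.38 at 70 min, and back to 0.61 at 120 min. QCR7 was measured on 16 arrays at 14 times. Its values ran from -0.19 at 120 min to 0.98 at 5 min, with a median of 0.11, and 10 of the 16 lay above 0.

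Complex IV, cytochrome c oxidase, gave 5 calls with peaks within a few minutes of each other, from 9.22 to 11.5 min. COX4 (YGL187C) ran from -0.17 at 50 min to 1.08 at 80 min, with a median of 0.45. Its time-point means were 0.63 at 15 min, -0.01 at 50 min and 0.90 at 80 min. COX7 (YMR256C) ran from 0.34 at 60 min to 1.55 at 85 min, with a median of 0.65, and its time-point means were 0.97 at 5 min, 0.40 at 35 min and 1.39 at 85 min. Both genes were high after release, low in mid-course and high again in the second cycle. COX7 is a short gene, and its maxima at 5 and 85 min fell on arrays where short genes in general were high: genes of 600 bases or less exceeded those of 1500 bases or more by 0.35 and 0.49 at 5 min and by 0.44 and 0.49 at 85 min in sets 1 and 2, against a median of 0.15 over the 44 arrays. After each array was corrected for gene length its swing was 0.48 (adjusted p = 8.17e-06). The swings were 0.64 ± 0.07 for COX4 (adjusted p = 5.72e-06) and 0.57 ± 0.10 for COX7 (adjusted p = 0.0003). COX8 (YLR395C) with 0.56, COX6 (YHR051W) with 0.42 and COX5A (YNL052W), the isoform made in air, with 0.41 were also called, with adjusted p of 0.000107, 5.67e-05 and 0.000944. COX9 (YDL067C), COX12 (YLR038C) and COX13 (YGL191W) had sizes of 0.24 to 0.31 and adjusted p of 0.0422, 0.125 and 0.206. COX12 had an r of 0.02 between sets, against a median of 0.73 over the members.

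The courses of the ATP synthase genes resembled each other. Over 22 time points the median correlation between pairs was 0.63 within ATP synthase, 0.50 within complex IV, 0.41 within complex III with cytochrome c, 0.37 within the TCA genes, 0.31 between roles and -0.00102 over all pairs of 5859 genes; pairs share the same arrays, and these values are a description. ATP7 (YKL016C), a subunit of the peripheral stalk, ran from 0.23 at 50 min to 1.33 at 85 min, with a median of 0.76. ATP15 (YPL271W), the epsilon subunit, ran from 0.06 at 120 min to 1.10 at 5 min, with a median of 0.58. It is a short gene like COX7, and its highest time-point means, 1.07 at 5 min and 0.91 at 85 min, fell on the same arrays. After the correction for gene length its swing was 0.42 (adjusted p = 7.83e-05). Without that correction the swings were 0.61 ± 0.07 for ATP7 (adjusted p = 1.13e-05) and 0.53 ± 0.08 for ATP15 (adjusted p = 0.000165), with peaks at 11.3 and 7.71 min. The other called genes were ATP16 (YDL004W, delta subunit, 0.44), ATP2 (YJR121W, beta subunit, 0.40), ATP14 (YLR295C, 0.39), ATP4 (YPL078C, 0.39) and ATP5 (YDR298C, 0.31), with peaks from 6.33 to 17.9 min. ATP3 (YBR039W), the gamma subunit, had 0.41 (adjusted p = 0.017), and ATP1 (YBL099W), the alpha subunit, 0.33 (adjusted p = 0.218).

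Most of these genes lay somewhat above the asynchronous wild-type reference. The mean over 25 time points was above 0 for 35 of 39 members, against 50.0% of all genes, and the median of the means was 0.49, against 0.00 over all genes. Past a 1.5-fold difference, 4 members were called higher (background 1.55%), and 0 lower (background 2.89%; at an unadjusted p under 0.05 by the same limma test, 9 members passed in either direction, and the lowest mean was -0.15). CIT1 averaged 1.502 ± 0.09 (SE, 25 time points), 2.83-fold (adjusted p = 5.58e-09). IDH2 averaged 1.39 ± 0.04, 2.62-fold, and lay between 0.62 and 2.31 on the arrays outside the 3 times. QCR9 averaged 1.08 ± 0.06, 2.12-fold, and CYC1 0.98 ± 0.06, 1.97-fold, with adjusted p of 6.23e-07 and 9.51e-06.

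The height of these means differed between the array sets. IDH2 averaged 1.78 ± 0.24 (SD, n = 25) in set 1 and 1.00 ± 0.17 (SD, n = 25) in set 2, without overlap of the date means: 1.74 and 1.82 on dates A and B of set 1 against 0.95 to 1.09 on the 3 dates of set 2. CYC1 averaged 1.32 ± 0.36 in set 1 and 0.65 ± 0.34 in set 2, and was not called in set 2 alone (adjusted p = 1), within date D, where its mean was 0.52 (SD 0.30, n = 14), or after a correction for gene length (0.77, adjusted p = 0.0200). QCR9 stayed between 0.98 and 1.17 over the 5 dates. Against 2-fold in place of 1.5-fold, only CIT1 and IDH2 of the members were called. Set 2 alone gave 3 higher calls (0.75% of all genes) and set 1 alone 8 (3.33%), against 1.55% of all genes in the fit of both sets. Date B alone gave 15 (3.18%), and the fit without 25, 40 and 55 min gave 7 (1.68%).

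Within roles, the highest and lowest means over 25 time points spread widely. LSC1 and KGD1 had the lowest means of the TCA genes, -0.14 ± 0.15 and -0.12 ± 0.11. COX7 was highest in complex IV with 0.85 ± 0.09 (adjusted p = 0.0724), and COX4 lowest with 0.39 ± 0.08. ATP7 was highest in ATP synthase with 0.84 ± 0.07 (adjusted p = 0.0133), and ATP1 lowest with -0.15 ± 0.09. QCR2, at 0.24 ± 0.17, was lowest in complex III. Not all of these ranks held in the medians of the time-point means over the 22 time points without the 3 times. There QCR2 had 0.58, above the 0.40 of QCR6, and COX4 had 0.56, above the 0.36 of COX13. By these medians LSC1 (0.17) and KGD1 (0.06) stayed lowest of the TCA genes and ATP1 (-0.003) of ATP synthase. COX7 (0.68) and ATP7 (0.79) stayed highest in their roles. Over 25 time points the means of LSC1, KGD1, ATP1, ATP2 (-0.02 ± 0.15) and QCR2 lay within 2 SE of 0.

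**Figure D3:**
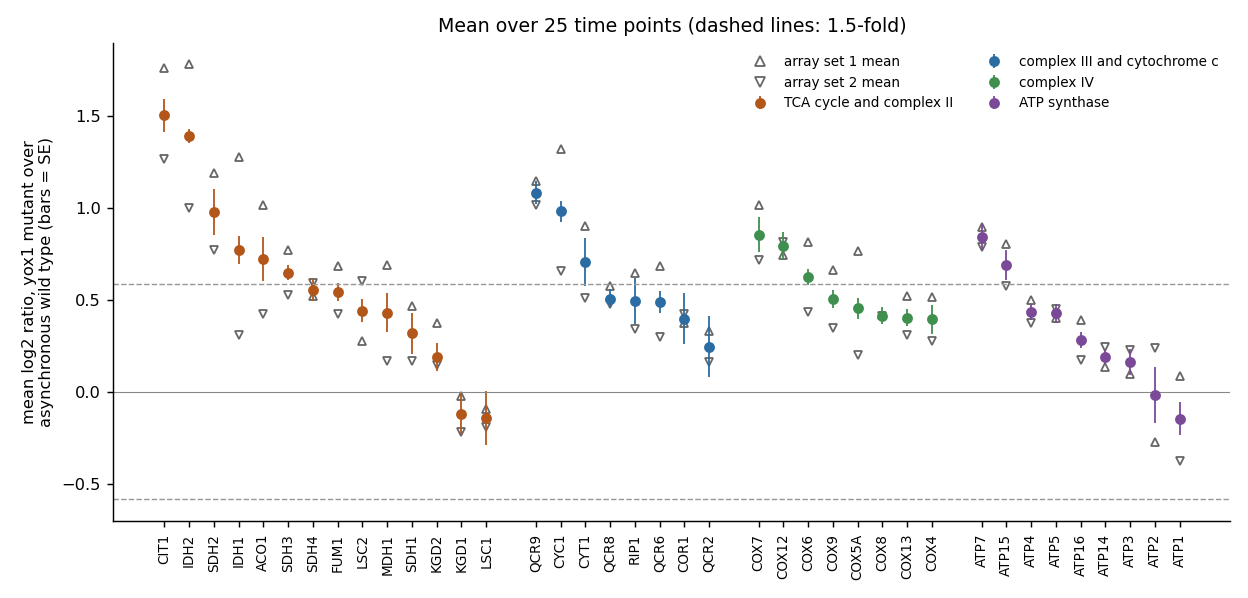
Mean log2 ratio of mutant over asynchronous wild-type reference for each of 39 genes over 25 time points (filled, bars SE), with the means of array set 1 and array set 2 as triangles and dashed lines at 1.5-fold, ordered by mean within each role. CIT1, IDH2, QCR9 and CYC1 are the genes called higher, and IDH1, IDH2 and CYC1 have set means far apart.

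Several genes drifted upward through the course. In the linear term beside the wave, in log2 per 60 min, 17 members rose without the 3 times (background 8.02%) and 1 fell (background 8.39%). By role, the 17 were 2 of the TCA genes and complex II (LSC1 and SDH4), 6 of complex III, 3 of complex IV (COX4, COX5A and COX8) and 6 of ATP synthase. COR1 rose by 0.47 ± 0.08 (adjusted p = 0.000115), QCR2 by 0.44 ± 0.10 (adjusted p = 0.00298), LSC1 by 0.39 ± 0.07 (adjusted p = 0.000376) and ATP2 by 0.39 ± 0.05 (adjusted p = 3.05e-06). LSC2 fell by 0.22 ± 0.06 (adjusted p = 0.007). With 25 time points 6 rose (background 5.24%): COR1, COX4, COX5A, ATP3, ATP4 and ATP5, with slopes from 0.24 to 0.78, and 0 fell (22 members passed an unadjusted p under 0.05 in either direction by the same limma test).

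The trend and the title date overlap, since in each set the times from 60 to 115 min fall under 1 date and most earlier times under others. With title date as a factor, 0 members rose over 25 time points (0.58% of all genes) and 4 over 22 (1.21%). Within dates A, B and D 0 members rose, against 0%, 0% and 1.04% of all genes. Within A and B no gene at all was called rising, so those dates cannot tell the members from other genes. Leaving out 95 min left 1 of the 6 calls, and leaving out 80 or 105 min left 3.

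Taken as a block, the samples closest to the arrest gave no call over the 25-point course. In the added term for 0, 5 and 10 min 0 of 39 members were called in either direction (background 2.59%), with 1 member at an unadjusted p under 0.05 by the same limma test, against 18.1% of all genes. Without 25, 40 and 55 min 2 members were called below (background 4.01%). MDH1 had a term of -0.73 ± 0.18 (adjusted p = 0.00796) and time-point means of -0.55 at 0 min, -0.30 at 5 min and 0.72 at 10 min. CYC1 had a term of -0.60 ± 0.13 (adjusted p = 0.00362). The term pools times at which the members differed, so it cannot show whether 1 of them stood apart. At 0 min 9 of 39 members lay above their own mean, at 5 min 18 and at 10 min 35. Their median distance from that mean was -0.24, -0.02 and 0.14. A term for 0 min alone gave 0 calls above and 0 below, against 1.17% and 0.38% of all genes.

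At 25, 40 and 55 min the same genes split largely along their length. In a term for these 3 times beside the wave and the trend, 13 members lay above their course (background 26.8%), 19 below (background 25.6%) and 7 were not called. COX7, with 183 bases from start to stop codon, had time-point means of 2.40, 1.90 and 1.67 at the 3 times against 0.40 to 1.39 at its other times. On single arrays the ranges overlapped, with 1.05 to 2.76 against 0.34 to 1.55. Its term was 1.51 ± 0.11 (adjusted p = 6.23e-11). ATP15, with 189 bases, had a term of 1.19 ± 0.10, ATP7, with 525 bases, 1.07 ± 0.08, and COX12, with 252 bases, 1.00 ± 0.14. These short genes lay far above their neighbouring times on the same arrays on which long genes lay far below. QCR2, with 1107 bases, had time-point means of -2.40, -1.80 and -1.31 at the 3 times and a term of -2.09 ± 0.21 (adjusted p = 7.55e-09). ATP2, with 1536 bases, had -2.06 ± 0.14, LSC1 -1.98 ± 0.14, ACO1 -1.84 ± 0.14 and COR1 -1.69 ± 0.14.

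Partners in 1 complex parted in this way. In complex II, SDH1 (1923 bases) and SDH2 (801 bases) had terms of -1.21 and -1.32, while SDH3 (597 bases) and SDH4 (546 bases) had 0.33 and 0.45, which turned to -0.06 and -0.01 after a correction for gene length. In complex III, QCR6, QCR8 and QCR9 had 0.88, 0.72 (-0.03 after that correction) and 0.96, while RIP1 and CYT1 had -1.47 and -1.56. Of the 6 members under 300 bases all 6 lay above, as did 79.5% of 88 such genes in all, though COX8, COX9 and QCR8 turned below 0 after that correction. Of the 12 members from 300 to under 600 bases 7 lay above and 2 below, against 61.1% and 4.76% of 778 genes. The 2 below were COX4 (468 bases) and COX5A (462 bases), with terms of -0.65 and -0.39. Of the 4 members from 600 to under 900 bases 0 lay above and 2 below, with a median term of -0.80. Among 890 genes of that length 39.6% lay above and 16.6% below, with a median term of 0.21. Of the 12 members from 900 to under 1500 bases 10 lay below and 0 above, against 35.1% and 13.5% of 1642 genes. Their median term was -0.90, against -0.16 over all genes of that length. All 5 members of 1500 bases and over lay below, against 33.7% of 2210 genes, with a median term of -1.48 against -0.14. IDH1 and IDH2 are long genes that were not called, with terms of -0.21 and -0.22.

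Across the 39 members, which share the arrays, the term and log2 gene length had a Pearson r of -0.80 and a Spearman rho of -0.81, against an r of -0.35 over 5608 genes with a length. The r was -0.79 in set 1 (37 members) and -0.80 in set 2 (39 members), and 36 members had the same sign in both sets. The median of genes of 600 bases or less minus that of genes of 1500 bases or more was 0.46 to 1.31 on the 6 arrays of these times and 0.00 to 0.49 on the other 44. These times share their title dates with their neighbours in time. What made these 3 samples differ was not tested.

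**Figure D4:**
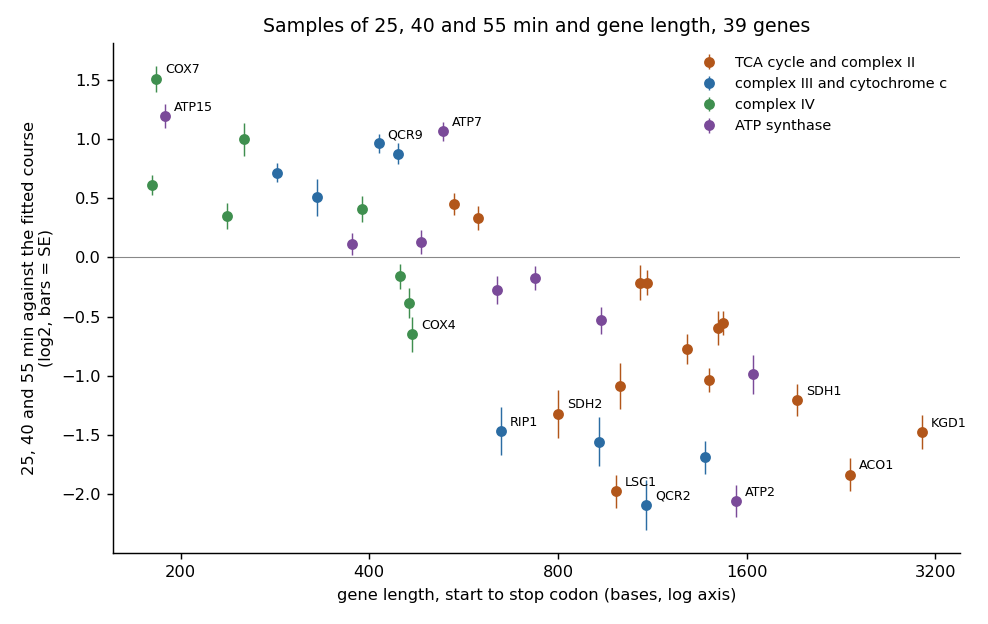
Term of 25, 40 and 55 min against the fitted course (log2, bars SE) plotted over gene length from start to stop codon (bases, log axis) for 39 genes coloured by role. The 6 genes under 300 bases lie above 0 (COX8, COX9 and QCR8 below it after a correction for gene length) and the 5 of 1500 bases and over lie below, with COX7 at 1.51 and QCR2 at -2.09 as the extremes.

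Gene length was also set beside the other tests. Over the members, the r between log2 gene length and the periodic size was 0.57 with 25 time points and 0.21 with 22, and the r with the slope was 0.54 and 0.09. On the 22 times the short-minus-long difference itself followed a wave of 0.14 with a peak at 5.70 min, while the swings of the called members had a median of 0.48. Each array was also corrected for a smooth trend over gene length, an alternative added after the data were seen. Then 24 members were called periodic over the 22 times, 23 of them also called without the correction. COR1 was gained and QCR8 was lost. After this correction 4 members in place of 13 lay above their course at the 3 times and 25 in place of 19 below, and the term kept an r of -0.56 with length. COX8 and COX9, called above before it, were called below after it, with terms of -0.56 (adjusted p = 0.000447) and -0.42 (adjusted p = 6.92e-06). The terms of SDH3, SDH4, QCR8, CYC1 and COX13 also turned below 0, without a call.

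**Figure D5:**
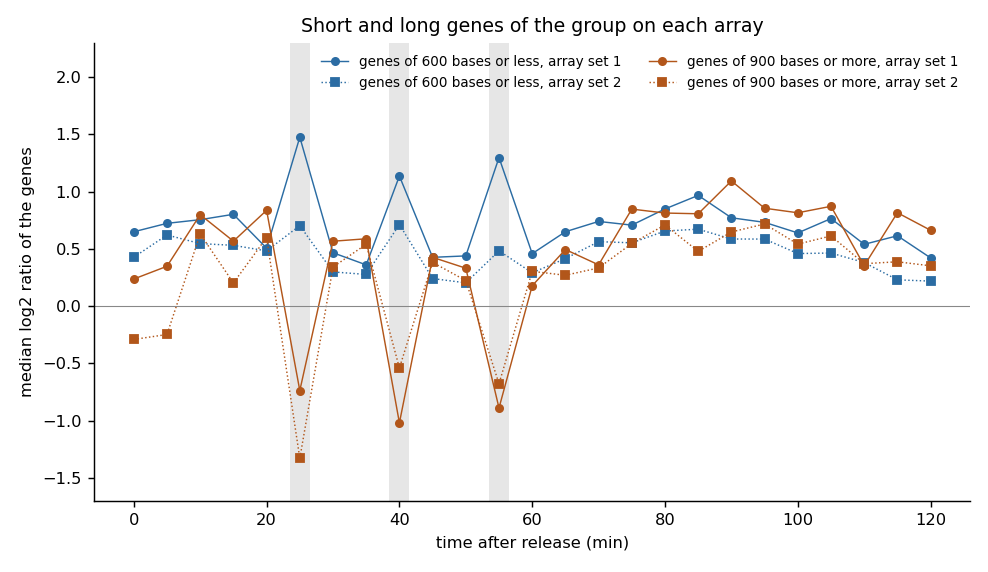
Median log2 ratio of the short genes of the group (600 bases or less, blue) and of the long ones (900 bases or more, orange) on each of 50 arrays against time after release in min, with circles and solid lines for array set 1 and squares and dotted lines for set 2. At 25, 40 and 55 min, in grey, the short genes reach 0.48 to 1.47 and the long genes -1.33 to -0.54, in both sets.

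Other genes of the pathways, from lists chosen with results of these data known, are given by their counts without the 3 times, to be read beside the 25.1% of all genes. Of the other subunits and regulators of the same complexes, 6 of 7 were called periodic, with a median peak of 13.8 min. They were STF1 (0.88 ± 0.15) and INH1 (0.59 ± 0.08), which bind and inhibit ATP synthase, QCR10, ATP17, ATP20 and TIM11, while ATP18 was not called. INH1 alone was called with 25 time points. Of 29 assembly factors 7 were called, among them SDH5 (0.56 ± 0.09), which attaches flavin to Sdh1, and COX18 (0.56 ± 0.10), and ATP23 had a larger size of 0.64 without a call (adjusted p = 0.0254). Of 67 mitochondrial ribosomal proteins 23 were called, with a median peak of 10.2 min and MRPL49 (0.58 ± 0.07) and MRPL38 (0.58 ± 0.11) as the largest. RSM10, RSM28 and MRPS12 were the 3 called with 25 time points.

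Enzymes that feed the cycle or work beside it gave few calls. Of the 5 pyruvate dehydrogenase genes 0 were called, with LPD1 (0.24) and LAT1 (0.21) as the largest. Among isozymes of TCA enzymes, IDP1, mitochondrial NADP isocitrate dehydrogenase (0.99 ± 0.21, peak at 36.3 min), and MDH3, the peroxisomal malate dehydrogenase (0.43 ± 0.10), were called. CIT2, the peroxisomal citrate synthase, had 0.90 (adjusted p = 0.0187). Of 6 other entry points for electrons, NDI1, the internal NADH dehydrogenase, was called (0.56 ± 0.11, peak at 10.2 min), and GUT2, with 0.46, was not. COX5B, the low-oxygen partner of COX5A, was the only 1 of 3 low-oxygen isoforms called, with a peak at 29.9 min and a slope of -0.50, and CYC7, the low-oxygen cytochrome c, was not (0.33, adjusted p = 0.0255). Of 9 carriers DIC1 (0.68 ± 0.16) was called and PIC2 (0.70, adjusted p = 0.0143) was not, and of 4 genes of mitochondrial DNA expression RPO41 was called (0.32 ± 0.07) and MIP1 was not (0.36). MLS1 (0.44) was the 1 call among 7 genes of gluconeogenesis and the glyoxylate cycle, where ADH2 had a larger size of 0.85 without a call.

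The regulators of respiration showed no called wave of their own. HAP4, the activating subunit whose level limits the Hap2/3/4/5 complex, averaged -0.92 ± 0.12 (adjusted p = 0.0847) and had a swing of 0.49 (adjusted p = 0.0645). Its values ran from -1.87 to 0.08 outside the 3 times, and its term at the 3 times was -1.51. HAP1, the haem-responsive activator, had a swing of 0.48 (adjusted p = 0.0316) and fell by 0.55 per 60 min over 22 time points (adjusted p = 6.57e-05). HAP5 had 0.28 (adjusted p = 0.0367) and a term of -0.34 at 0, 5 and 10 min (adjusted p = 0.00948), and HAP2 and HAP3 had 0.15 and 0.09. Of the 4 retrograde regulators 0 were called, with RTG1 at 0.67 (adjusted p = 0.0337) and MKS1 at 0.26 (adjusted p = 0.0212). At an unadjusted p under 0.05 the same limma test passed 50.1% of all genes.

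Several carbohydrate genes had swings above the 1.00 of SDH2. Of 14 genes of trehalose and glycogen metabolism 12 were called, with a median peak of 18.5 min; TSL1, a regulatory subunit of trehalose synthase, swung by 1.52 ± 0.14 and GPH1, glycogen phosphorylase, by 1.49 ± 0.19. Of 17 glycolytic genes 2 were called, HXK1 (1.52 ± 0.18) and GLK1 (1.38 ± 0.26), which phosphorylate glucose, with peaks at 18.6 and 21.7 min. All 17 glycolytic genes lay below their course at 25, 40 and 55 min, with a median term of -1.82, at a median gene length of 1314 bases. Of 137 cytosolic ribosomal proteins 38 were called, to be read beside the 25.1% of all genes. Their peaks ran from 0.11 to 70.8 min, across the turn of the 71 min cycle, so no median peak is given. RPP2A (0.57, adjusted p = 0.463) and RPL7B (0.55, adjusted p = 0.34) had the largest sizes, neither of them called.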

How the data were processed

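The deposited values were 2-colour log ratios for 50 arrays. Per the labels the Cy5 channel holds the yox1 time point and the Cy3 channel the asynchronous wild type. The authors deposited log10 ratios, as inferred from hard limits at -2 and 2, a ratio of 100 either way; base and direction are not stated in the file. The sources used here do not give the scanner, background correction, normalization or intensities, so the number of arrays limits the precision. No array has the dyes exchanged.

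From 6217 rows, 12 control rows were left out. The 212 values on the limits, 0 of them in the 40 genes, were treated as missing. After conversion to log2 the median of every array (from -0.000666 to 0.0482 before, in log10) was moved to 0, and the 2 arrays of a time were averaged. Genes measured at 20 of 25 or 17 of 22 times were tested: 6063 and 6087. The period of 71 min was fitted over 66 marker genes (71 and 70 min in the sets). Tests were limma 3.58.1 in R 4.3.3, on cosine, sine and linear time (6 tests), with treat at 1.5-fold for the mean. Simulated data with known effects tested the scripts. Figures used matplotlib 3.10.9 in Python 3.11.15.

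Symbols and gene lengths (start to stop codon, introns included) came from RefSeq's R64 gene table. It held 5703 of the open reading frames, and 502 kept the file's name. The file names no build, so no coordinates are given. Promoter motifs were not analysed here.

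The members, the 24 gene lists and the tests were chosen with earlier results of these data known. Values are given for the 2 members of each role with the largest swing over 22 times, for those with the highest and lowest mean, for genes behind counts of 5 or fewer and, in other lists, for the 2 largest swings. The treatment protocol gives 10 min between samples, against 5 min in the design text. One array is titled 75 min but has 0 min as its source, and 3 arrays of set 2 (0, 5 and 15 min) carry an unexplained M; each was left out in an alternative. The 2 arrays of a time were averaged, so the fits hold no replicate block. One result on the isozymes of TCA enzymes is not reported here.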

Additional observations from a re-analysis of the deposited data

How the results depend on the processing

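Over 10 counts of members, 161 alternative values lay within 1.5 times the first and 48 did not; of the values of single called members, 855 kept their call, 214 lost it and 9 changed direction. Periodic sizes have no sign and could not change direction. The cause of the shifts was not tested.

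The 5 periodic calls of 25 time points became 13 at an adjusted p under 0.05, 11 with arrays scaled to one spread, 9 with array set as a factor, 3 and 8 with periods of 65 and 77 min, 3 without the linear term, 3 without 0, 5 and 10 min, 24 without 25, 40 and 55 min, and 0, 3 and 12 within title dates A, B and D. Of all genes 0.50%, 3.81% and 9.22% were called within these dates. Leaving out single time points gave 3 to 12, and single array sets 3 and 6. The 24 calls of 22 time points became 14 without the linear term (21.2% of all genes). Within dates A, B and D they became 1, 3 and 12 (8.07%, 3.81% and 9.22% of all genes). Dates B and D hold none of 25, 40 and 55 min, so their fits are the same as with 25 time points. Single time points left out gave 23 to 28, and each array set alone 20.

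The 4 higher means became 23 against 1.2-fold (9.15% of all genes) and 2 against 2-fold (0.33%). They became 7 with scaled arrays (1.81%), 7 without 25, 40 and 55 min (1.68%) and 15 within date B (3.18%). Single time points left out gave 4 to 5, and single sets 3 and 8 (0.75% and 3.33% of all genes). The 6 upward trends became 18 at p under 0.05, 14 with array set as a factor, 19 with scaled arrays, 2 with a period of 65 min, 3 without 0, 5 and 10 min, 17 without 25, 40 and 55 min, 3 without the arrays tagged M, and 0 with title date as a factor or within dates A, B and D; single time points left out gave 1 to 8, and each set alone 5. Of all genes 0.58% rose with title date as a factor, and 0%, 0% and 1.04% within dates A, B and D. The 0 downward trends became 1 at p under 0.05, 1 after the length correction and 1 without 25, 40 and 55 min. They also became 1 without the arrays tagged M and 2 without 0, 5 and 10 min.

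The 0 release terms below became 1 at p under 0.05 and 2 without 25, 40 and 55 min, and 0 lay above under every alternative run. At 25, 40 and 55 min the 13 above became 4 with scaled arrays, 4 after the length correction and 6 against the neighbouring times, and the 19 below became 12 against the neighbours and 25 after the length correction. The 9 changes of direction were all in members above: with the length correction the terms were -0.56 for COX8, -0.42 for COX9, -0.24 for CYC1, -0.18 for COX13, -0.064 for SDH3, -0.028 for QCR8 and -0.012 for SDH4, and with scaled arrays -0.29 for CYC1 and -0.083 for SDH3. Single time points left out gave 9 to 14 above and 16 to 22 below, and single sets 8 and 10 above and 15 and 18 below. Of the title dates, the release term and the term of the 3 times could be fitted within date A only, which gave 0 release calls and 10 above and 16 below at the 3 times. No intensities were analysed here, so signal over background is unknown.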
